A study of Mus musculus with 4 samples.

Results

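The genes described here are the molecular chaperones and the folding and stress genes of the endoplasmic reticulum (ER). They comprise the genes of the Hsp70, small heat shock protein, Hsp60, Hsp10, Hsp105, Hsp90, J protein and protein disulfide isomerase symbol families (Hspa, Hspb, Hspd, Hspe, Hsph, Hsp90, Dnaja, Dnajb, Dnajc and Pdia), together with Calr, Xbp1, Atf4, Ddit3, Herpud1, Trib3, Sdf2l1, Creld2, Manf, Hyou1 and Sel1l. They were chosen by annotated symbol, and no measured value entered the rule, though earlier results of these data were known. In all, 99 of the 24613 probes on the array carried such a symbol, and they measured 78 of 15967 genes. Of these 78 genes, 60 reached the expression minimum of 5.49 log2 and 18 did not, against 9201 expressed genes in the whole series. Hspa1a, Hspa1b, Hspa8, Hsp90ab1, Hspe1 and Dnajb9 had no annotated probe and were not analysed here.

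Transcripts were measured in mouse kidney on Illumina bead arrays, in a study of the early renal response to diabetes on different genetic backgrounds. The 4 groups were C57BL/6 diabetic, C57BL/6 control, FVB/N diabetic and FVB/N control, each with 1 column of array values, called a library here. Diabetic mice had been diabetic for 21 days, and control mice had received saline. All mice were 8 weeks old and of both sexes. The series text gives 6 kidneys per group, but the sex makeup of each library, whether a library is a pool of the 6 kidneys or a single kidney, and how diabetes was induced are not stated in the sources read here. With 1 library per group no difference has a replicate check, no test was possible, and every difference compares libraries rather than conditions.

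Chaperones bind unfolded protein and help it reach its native form. In the cytosol, Hsp70 proteins work in cycles of ATP hydrolysis that J proteins start and nucleotide exchange factors end, and the transcription factor HSF1 induces many of these genes when unfolded protein accumulates. In the ER, sensors of the unfolded protein response act through ATF6 and XBP1, which induce ER chaperones and degradation factors, and through PERK, which favours translation of ATF4 and so induction of CHOP, the product of Ddit3. Proximal tubule cells and podocytes reabsorb, secrete and turn over large amounts of protein, and ER stress has been studied widely in diabetic kidney disease.

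Values are log2 intensities, and a difference of 0.585 on this scale is the 1.5-fold limit used for counting. A gene with several probes was represented by its brightest probe. Within one library pair, different probes of the same gene gave an estimate of measurement error. Over 1159 genes with 2 expressed probes, the error of one probe, given as a standard deviation, was 0.33 log2 for C57BL/6 diabetic minus control and 0.50 for FVB/N diabetic minus control. It was 0.41 for FVB/N minus C57BL/6 among controls and 0.58 among diabetic libraries. This error does not include the spread between animals.

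The libraries had medians of 5.48 to 5.49 log2 and expressed kidney markers such as Slc34a1, Aqp1, Miox, Umod and Slc12a1. The FVB/N diabetic library stood apart from the others. It was the lowest of the 4 libraries for 39.7% of expressed genes and at least 1.5-fold above each other library for 6.94%, against 1.38% for the C57BL/6 diabetic library. Markers of other tissue also moved with the groups. The 5 adipocyte and brown fat markers, all expressed, summed to 11.09 in C57BL/6 diabetic against 12.33 log2 in C57BL/6 control kidney, and to 9.96 in FVB/N diabetic against 12.55 in FVB/N control kidney. The 3 collecting duct markers summed to 8.55 in C57BL/6 diabetic against 8.91 in C57BL/6 control kidney, and to 10.95 in FVB/N diabetic against 8.64 in FVB/N control kidney. In FVB/N, Aqp2 differed by 2.81 and Aqp3 by 2.66 log2, whereas Atp6v1b1 differed by -0.04, so the list did not move as a whole. The 4 skeletal muscle and 3 measured adrenal cortex markers were all below the expression minimum. Of 7 measured exocrine pancreas markers 4 were expressed, and the list summed to 12.05 in C57BL/6 diabetic against 11.86 in C57BL/6 control kidney, and to 12.45 in FVB/N diabetic against 11.82 in FVB/N control kidney. Most of that sum is Cela1, with 12.38 in FVB/N diabetic against 11.66 in FVB/N control kidney, whereas Amy2a5 and Reg1 were lower in the diabetic library of both strains, at -1.34 and -1.02 log2 in FVB/N. In FVB/N diabetic against FVB/N control kidney, the proximal tubule markers summed to 16.20 against 16.84, the erythroid markers to 13.41 against 14.17 and the smooth muscle markers to 12.33 against 11.56. In C57BL/6 the erythroid markers summed to 13.59 in diabetic against 13.16 in control kidney. Most of the smooth muscle sum is Acta2, at 0.80 log2 in FVB/N. There Tagln differed by 1.29 and Myh11 by 0.08. Below the expression minimum, Cnn1 differed by 0.04 and Des by -0.74. Of the proximal tubule markers Kap differed most in FVB/N, at -2.08 log2, while Miox was at -0.04 and Slc5a2 at 0.31. The podocyte markers summed to 11.22 in C57BL/6 diabetic against 11.86 in C57BL/6 control kidney, and to 11.37 against 11.46 in FVB/N. Of these Podxl differed by -0.66 and Nphs1 by 0.06 in C57BL/6. The endothelium markers summed to 8.35 in C57BL/6 diabetic against 8.93 in C57BL/6 control kidney, and to 8.53 against 8.82 in FVB/N. The macrophage markers summed to 10.08 in C57BL/6 diabetic against 9.60 in C57BL/6 control kidney. In FVB/N the macrophage markers summed to 9.50 in diabetic against 9.60 in control kidney. There 3 of the 6 were above 0, and differences ran from -1.46 in Adgre1 to 1.07 in C1qb. The part of these tissues in the chaperone values was not tested, and in whole tissue fewer cells of a type and less RNA per cell cannot be told apart.

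The chaperone genes that differed by 1.5-fold between diabetic and control kidney lay in both directions, and there were more of them in FVB/N than in C57BL/6, as there were over all genes. In C57BL/6, 4 of the 60 expressed members were at least 1.5-fold higher in the diabetic library, against 6.14% of all expressed genes. The members lower by that limit were 2, against 6.35% of all genes. In FVB/N, 9 members were at least 1.5-fold higher in the diabetic library, against 12.4% of all expressed genes, and 8 were lower, against 13.9%. These shares are near the background, so they are not a result about chaperones. At 2-fold, 2 members were higher and 1 lower in C57BL/6, against 1.03% and 0.989% of all genes, and 2 were higher and 1 lower in FVB/N, against 4.05% and 2.18%. The median difference of the 60 members was -0.04 log2 in C57BL/6, where that of all expressed genes was 0.01, and 0.04 in FVB/N, where it was -0.10. The standard deviation of the members' differences was 0.40 in C57BL/6 and 0.54 in FVB/N, close to the 0.39 and 0.55 of all expressed genes. Centring on intensity by loess turned the FVB/N split of 9 higher and 8 lower into 11 and 4, and that of all genes from 1142 and 1282 into 1342 and 982.

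**Figure D1:**
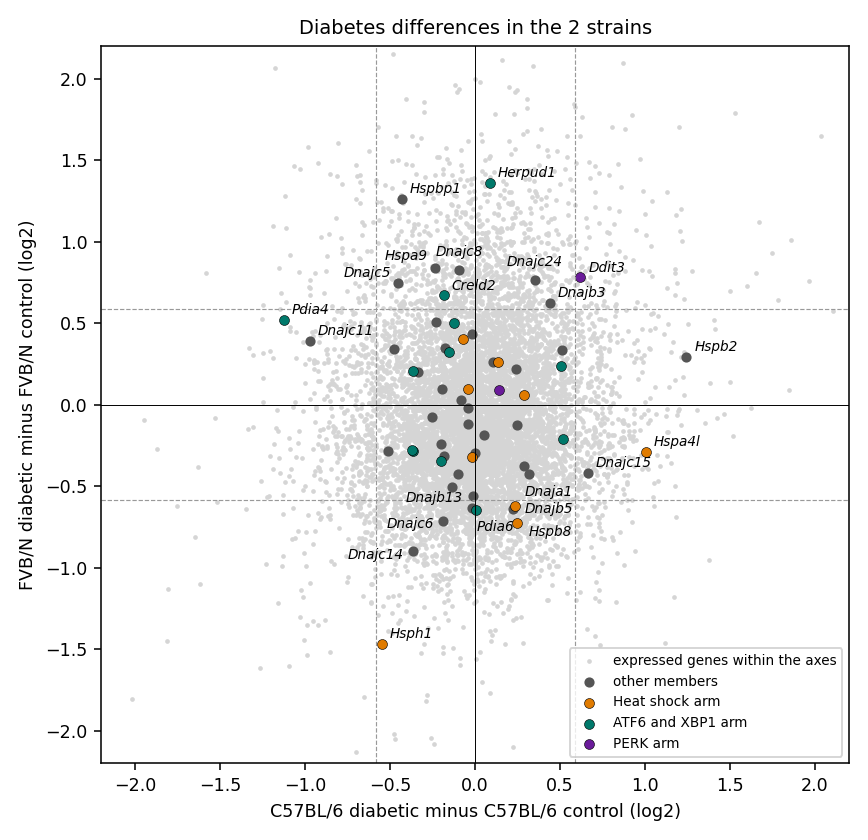
Diabetic minus control difference of expressed genes in C57BL/6 (horizontal axis, log2) and FVB/N (vertical axis, log2). Genes beyond the axis limits are not drawn. The 60 expressed members are coloured points by arm, and dashed lines mark the 1.5-fold limit. Ddit3 is the only member beyond the upper limit in both strains, at 0.62 in C57BL/6 and 0.78 in FVB/N.

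Members that passed the limit in C57BL/6 did not do so in FVB/N, except Ddit3. It was the 1 member at least 1.5-fold higher in the diabetic library of both strains, against 1.21% of all expressed genes. The members at least 1.5-fold lower in both strains numbered 0, against 1.25%, and those past the limit in opposite directions numbered 0, against 1.51%. Judged by sign alone, 12 members were above 0 in both strains, against 23.1% of all genes, and 18 were below 0 in both, against 29.4%. Beyond 2 single-probe standard deviations there were 4 members in C57BL/6 (Dnajc11, Hspa4l, Hspb2 and Pdia4), against 8.99% of all genes. In FVB/N there were 3 (Herpud1, Hspbp1 and Hsph1), against 6.39%.

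Ddit3 encodes CHOP, the transcription factor at the end of the PERK pathway. Its probe read 5.96 in C57BL/6 diabetic against 5.34 in C57BL/6 control kidney, and 6.68 in FVB/N diabetic against 5.90 in FVB/N control kidney. The diabetic library was the higher in each strain, by 0.62 and 0.78 log2, or 1.54-fold and 1.72-fold. These values lie close to the expression minimum, the C57BL/6 control one below it, and the differences are 1 to 2 single-probe standard deviations wide. Within each treatment FVB/N was also above C57BL/6, by 0.72 among diabetic and 0.56 among control libraries.

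Atf4, whose protein is controlled mainly at translation, was nearly flat at its brighter probe. That probe read 11.57 in C57BL/6 diabetic against 11.43 in C57BL/6 control kidney, and 11.66 in FVB/N diabetic against 11.56 in FVB/N control kidney. Its dimmer probe read 6.24 in C57BL/6 diabetic against 5.85 in C57BL/6 control kidney, and 6.75 in FVB/N diabetic against 5.50 in FVB/N control kidney. Both probes were higher in the diabetic libraries, but the dimmer one gave 1.25 log2 in FVB/N where the brighter one gave 0.09, so the size of the Atf4 difference is not settled by this array. Trib3, a pseudokinase gene induced by ATF4 and CHOP, lay below the expression minimum, with 5.18 in C57BL/6 diabetic against 5.65 in C57BL/6 control kidney, and 5.22 in FVB/N diabetic against 4.99 in FVB/N control kidney.

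Other targets of PERK and ATF4 outside the members were read from a list of 29 genes, of which 20 were expressed. In C57BL/6, 3 were at least 1.5-fold higher in the diabetic library and 0 lower. The list median there was 0.15 log2, with 14 of the 20 above 0. Over all expressed genes in C57BL/6, 6.14% were higher and 6.35% lower by the limit, and 51.2% were above 0. In FVB/N, 7 were higher and 0 lower, with a median of 0.06 and 11 above 0. Over all genes in FVB/N, 12.4% were higher and 13.9% lower by the limit, and 42.4% were above 0. Ppp1r15a, which encodes the phosphatase subunit GADD34 that reverses the PERK signal, read 6.11 in C57BL/6 diabetic against 5.14 in C57BL/6 control kidney, and 6.77 in FVB/N diabetic against 5.27 in FVB/N control kidney. Both control values were below the expression minimum, and the gene counted as expressed only through its diabetic values, so its differences of 0.97 and 1.51 log2 are given as a description. Ppp1r15a is among the 3 and the 7 genes counted as higher, and its place in those counts follows in part from the expression filter. Sars, a transfer RNA synthetase gene, differed by 1.28 in FVB/N and by -0.11 in C57BL/6. Nupr1, a stress-induced transcription regulator, differed by 1.14 in FVB/N and 0.22 in C57BL/6, and Phgdh, an enzyme of serine synthesis, by 0.97 and 0.08, with an FVB/N control value of 5.41, below the minimum. The amino acid gene Asns (asparagine synthetase), also on the list, differed by -0.27 in FVB/N and 0.24 in C57BL/6, both within 1 single-probe standard deviation.

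The ATF6 and XBP1 arm did not share one direction with diabetes. Of 16 measured targets, 12 were expressed. In C57BL/6, 0 of the 12 passed the 1.5-fold limit upward and 1 downward in diabetic kidney, with a median of -0.17 log2, and 4 lay above 0, where 51.2% of all expressed genes did. In FVB/N, 2 were higher and 1 lower, with a median of 0.22, and 7 lay above 0, against 42.4%. The 1 lower gene in FVB/N, Pdia6, no longer passed the limit after loess centring.

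**Figure D2:**
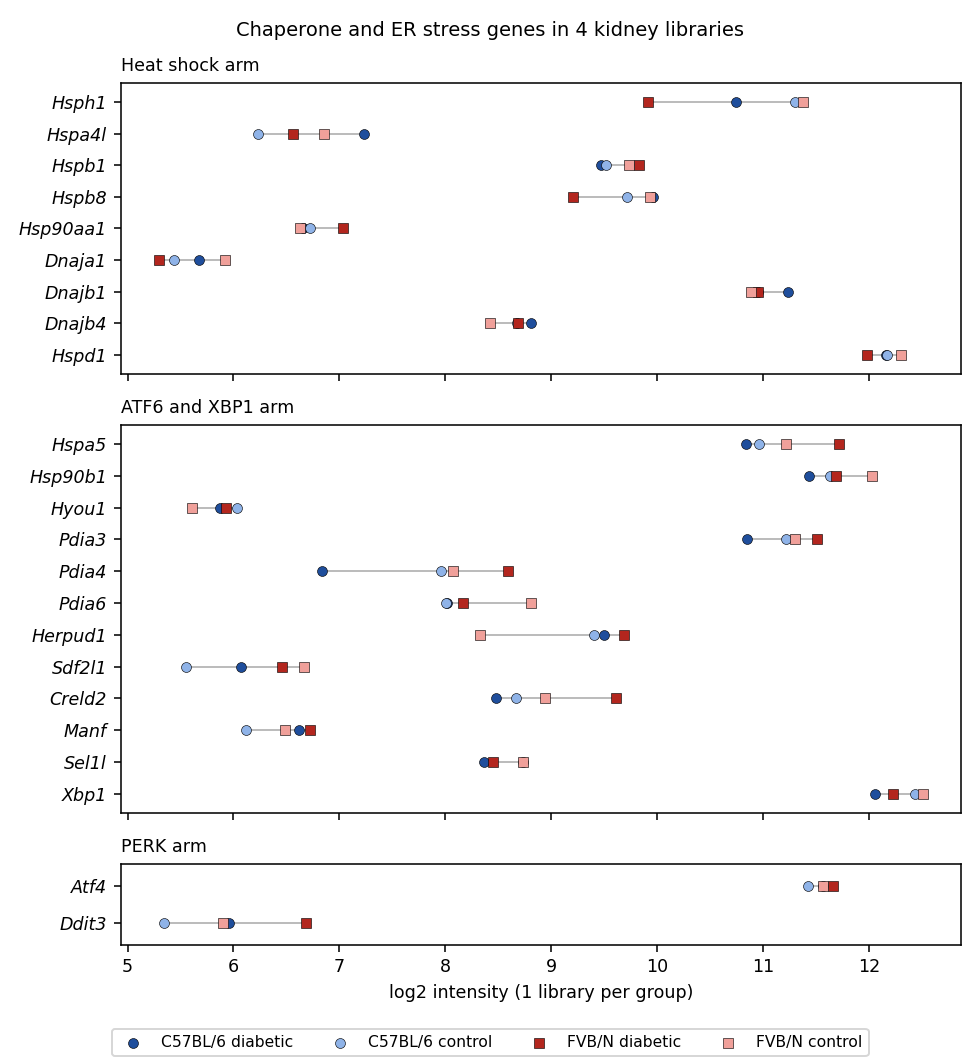
Log2 intensity of the expressed genes of the heat shock, ATF6 and XBP1, and PERK arms in each of the 4 libraries (points; 1 library per group; lines join the lowest and highest library of a gene). Hsph1 is lowest in the FVB/N diabetic library at 9.91, Pdia4 is lowest in the C57BL/6 diabetic library at 6.83, and Herpud1 is lowest in the FVB/N control library at 8.33.

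Hspa5 encodes BiP, the Hsp70 of the ER lumen and the usual index gene of the unfolded protein response. It read 10.84 in C57BL/6 diabetic against 10.97 in C57BL/6 control kidney, and 11.72 in FVB/N diabetic against 11.22 in FVB/N control kidney. The FVB/N diabetic library was highest, 0.50 log2 above its control, while the C57BL/6 difference was -0.13. Hsp90b1, which encodes GRP94, the Hsp90 of the ER, read 11.43 in C57BL/6 diabetic against 11.63 in C57BL/6 control kidney, and 11.69 in FVB/N diabetic against 12.03 in FVB/N control kidney. Here both diabetic libraries were below their controls, by less than 1 single-probe standard deviation.

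Hyou1, an exchange factor for BiP, stayed near the expression minimum, with 5.88 in C57BL/6 diabetic against 6.03 in C57BL/6 control kidney, and 5.93 in FVB/N diabetic against 5.61 in FVB/N control kidney. Its differences of -0.15 in C57BL/6 and 0.32 in FVB/N lie within the probe error. Calr, the lectin chaperone calreticulin, was below the minimum, with 5.28 in C57BL/6 diabetic against 5.47 in C57BL/6 control kidney, and 5.50 in FVB/N diabetic against 5.57 in FVB/N control kidney. Dnajc3, a J protein of the ER lumen also known as p58IPK, was below it as well, with 5.37 in C57BL/6 diabetic against 5.44 in C57BL/6 control kidney, and 5.30 in FVB/N diabetic against 5.46 in FVB/N control kidney. No direction is read from these dim probes.

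Protein disulfide isomerases form and rearrange the disulfide bonds of secreted proteins, and their probes differed from each other. Pdia4, which encodes ERp72, read 6.83 in C57BL/6 diabetic against 7.96 in C57BL/6 control kidney, and 8.59 in FVB/N diabetic against 8.07 in FVB/N control kidney. The C57BL/6 diabetic library was at least 1.5-fold below each other library, and Pdia4 had the widest range of all 60 members, 1.76 log2. Its diabetes difference was -1.12 in C57BL/6 and 0.52 in FVB/N. Pdia6 read 8.01 in C57BL/6 diabetic against 8.00 in C57BL/6 control kidney, and 8.17 in FVB/N diabetic against 8.81 in FVB/N control kidney. For this gene the FVB/N control library was the high one and the other libraries were alike. Pdia3, which encodes ERp57, the isomerase that works with calnexin and calreticulin, read 10.85 in C57BL/6 diabetic against 11.22 in C57BL/6 control kidney, and 11.51 in FVB/N diabetic against 11.30 in FVB/N control kidney. Its differences, -0.37 and 0.20, had the same signs as those of Pdia4 and did not reach the limit.

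Herpud1, an ER membrane protein that takes part in the degradation of unfolded ER proteins, had the largest FVB/N difference among the members with a higher diabetic value. It read 9.49 in C57BL/6 diabetic against 9.41 in C57BL/6 control kidney, and 9.69 in FVB/N diabetic against 8.33 in FVB/N control kidney. The FVB/N diabetic library was 2.57-fold above its control, a difference of 1.36 log2. This difference came with a low FVB/N control value, at least 1.5-fold below each other library, whereas the FVB/N diabetic value was 0.20 above the C57BL/6 diabetic one. Sel1l, the adaptor of the same degradation complex, read 8.36 in C57BL/6 diabetic against 8.73 in C57BL/6 control kidney, and 8.45 in FVB/N diabetic against 8.73 in FVB/N control kidney. Its 2 diabetic values were both lower than their controls, with differences of -0.37 and -0.29 log2, under the limit.

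Creld2, an ER stress-induced protein of the secretory pathway, read 8.48 in C57BL/6 diabetic against 8.67 in C57BL/6 control kidney, and 9.62 in FVB/N diabetic against 8.95 in FVB/N control kidney. The FVB/N diabetic library was at least 1.5-fold above each other library, with a diabetes difference of 0.67 in FVB/N and -0.19 in C57BL/6. Sdf2l1, a partner of BiP, read 6.07 in C57BL/6 diabetic against 5.55 in C57BL/6 control kidney, and 6.45 in FVB/N diabetic against 6.67 in FVB/N control kidney. Manf, a small ER protein released under ER stress, read 6.62 in C57BL/6 diabetic against 6.11 in C57BL/6 control kidney, and 6.72 in FVB/N diabetic against 6.48 in FVB/N control kidney. Both genes were about 0.5 log2 higher in the C57BL/6 diabetic library, 0.52 for Sdf2l1 and 0.50 for Manf, and neither reached the limit. Xbp1, whose transcript is spliced by the sensor IRE1, read 12.06 in C57BL/6 diabetic against 12.43 in C57BL/6 control kidney, and 12.23 in FVB/N diabetic against 12.51 in FVB/N control kidney. Both diabetic libraries were lower, with differences of -0.37 and -0.28 log2, and its 1 probe gave no separate value for the spliced form.

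Beyond the members, 31 of 39 measured genes of ER folding, translocation and degradation were expressed. In C57BL/6, 1 passed the limit upward and 2 downward in diabetic kidney, with a median of -0.05 log2, where 6.14% and 6.35% of all expressed genes did. In FVB/N, 4 were higher and 4 lower, with a median of -0.09, where 12.4% and 13.9% of all genes were. Loess centring left 0 higher in C57BL/6 and 2 lower in FVB/N. The largest difference on the list was that of Wfs1, an ER membrane protein gene, which read 5.25 in C57BL/6 diabetic against 5.55 in C57BL/6 control kidney, and 6.92 in FVB/N diabetic against 5.12 in FVB/N control kidney. It counted as expressed only through the FVB/N diabetic library, and the other values lay near or below the minimum, so no fold is read from it. Wfs1 is among the 4 counted as higher in FVB/N, and its place there follows in part from the expression filter. Calu, a calcium-binding protein of the ER, differed by 0.89 in FVB/N and -0.24 in C57BL/6, and Sec62, part of the translocation machinery, by -0.80 and 0.09. Canx, the membrane lectin chaperone calnexin, differed by -0.45 in FVB/N and -0.82 in C57BL/6, with an FVB/N diabetic value of 5.40, below the minimum.

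The upstream sequence of these genes was examined because several ER members are textbook targets of ATF6 and XBP1 through the ER stress element. The RefSeq promoter table of build GRCm38.p6 held windows for 64 of the 78 measured members, and the 250 bases before each start were searched on both strands. The ER stress element, CCAAT and CCACG with 9 free bases between them, occurred in 0.113% of all 32851 windows. It occurred in the windows of 6 members, namely Calr, Creld2, Dnajc3, Hsp90b1, Hspa5 and Pdia6. The ER stress element II, ATTGG and CCACG with 1 free base between them, occurred in 0.0304% of windows and among the members in Herpud1 alone. Herpud1 also held the ATF4 and CHOP element TGATGCAA, found in 0.791% of windows, and no motif match overlapped another in its window. The unfolded protein response element TGACGTGG occurred in 0.563% of windows and among the members in Dnajc25 alone. The windows of the 5 expressed members with an ER stress element of either kind are shown 5′ to 3′ on the gene's strand, with each match in capitals.
Hspa5: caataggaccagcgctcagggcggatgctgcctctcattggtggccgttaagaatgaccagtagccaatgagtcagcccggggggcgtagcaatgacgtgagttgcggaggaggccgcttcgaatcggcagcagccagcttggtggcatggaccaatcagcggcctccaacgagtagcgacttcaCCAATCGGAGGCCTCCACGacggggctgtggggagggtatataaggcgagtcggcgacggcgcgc
Creld2: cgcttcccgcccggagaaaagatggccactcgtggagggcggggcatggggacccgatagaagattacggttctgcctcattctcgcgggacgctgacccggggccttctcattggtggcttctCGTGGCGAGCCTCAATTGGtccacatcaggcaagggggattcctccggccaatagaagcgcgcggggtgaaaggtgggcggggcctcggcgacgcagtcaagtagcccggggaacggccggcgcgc
Herpud1: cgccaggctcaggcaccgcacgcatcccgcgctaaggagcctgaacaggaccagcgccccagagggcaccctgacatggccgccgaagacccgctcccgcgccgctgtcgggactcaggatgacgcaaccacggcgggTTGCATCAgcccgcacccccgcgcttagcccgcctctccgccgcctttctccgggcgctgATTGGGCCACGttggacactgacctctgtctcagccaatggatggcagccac
Hsp90b1: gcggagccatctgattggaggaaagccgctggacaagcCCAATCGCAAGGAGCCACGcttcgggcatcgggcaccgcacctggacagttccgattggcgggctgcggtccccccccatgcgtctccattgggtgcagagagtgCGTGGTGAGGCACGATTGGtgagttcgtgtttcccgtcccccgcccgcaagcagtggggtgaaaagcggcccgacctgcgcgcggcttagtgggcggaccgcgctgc
Pdia6: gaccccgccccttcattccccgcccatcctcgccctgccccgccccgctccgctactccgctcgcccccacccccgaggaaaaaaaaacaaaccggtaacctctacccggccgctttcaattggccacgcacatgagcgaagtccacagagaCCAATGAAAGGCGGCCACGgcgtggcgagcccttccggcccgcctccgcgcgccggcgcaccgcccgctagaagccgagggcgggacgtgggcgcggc

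The Hspa5 window spans chr2:34771840-34772089 on the plus strand, with its match at positions -65 to -47 from the start. Creld2 spans chr15:88819396-88819645 on the plus strand, and Herpud1 spans chr8:94386179-94386428 on the plus strand. In Herpud1 the capitals mark the reverse complement TTGCATCA of the ATF4 and CHOP element, and then the ER stress element II. Hsp90b1 spans chr10:86705445-86705694 on the minus strand and holds the ER stress element at 2 places, and Pdia6 spans chr12:17266339-17266588 on the plus strand. The genes with these windows did not share a direction in FVB/N. Hspa5, Creld2 and Herpud1 were above 0 at 0.50, 0.67 and 1.36 log2, whereas Hsp90b1 and Pdia6 were below 0 at -0.34 and -0.65. A match is a description of letters, and no measurement of binding was used here.

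The heat shock arm listed 14 targets of HSF1, of which 9 were measured, and all 9 were expressed. The arm was split in sign in both strains, with 5 of the 9 above 0 in C57BL/6 and 4 of the 9 in FVB/N. Over all expressed genes, 51.2% and 42.4% were above 0. In C57BL/6, 1 of the 9 was at least 1.5-fold higher in the diabetic library and 0 were lower, with a median of 0.13 log2. The shares over all expressed genes there were 6.14% and 6.35%. In FVB/N, 0 were higher and 3 lower, with a median of -0.29, beside shares of 12.4% and 13.9% over all expressed genes. The 3 were Hsph1, Hspb8 and Dnaja1. The FVB/N diabetic value of Dnaja1 was 5.30, below the expression minimum, and its FVB/N control value was its highest, at 5.92. Its place in this count and in that of all lower members follows in part from the expression filter. Loess centring and the mean of all probes each left 2, without Dnaja1, whose probes disagreed.

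Hsph1 encodes Hsp105, an exchange factor of Hsp70, and had the largest difference of all members with a lower diabetic value. It read 10.75 in C57BL/6 diabetic against 11.30 in C57BL/6 control kidney, and 9.91 in FVB/N diabetic against 11.38 in FVB/N control kidney. The 2 control libraries were alike and both diabetic libraries lay below them, by 1.46-fold in C57BL/6 and 2.77-fold in FVB/N (-0.55 and -1.47 log2). The C57BL/6 difference stopped just short of the 1.5-fold limit. Hspa4l, a member of the same Hsp110 family, read 7.23 in C57BL/6 diabetic against 6.23 in C57BL/6 control kidney, and 6.57 in FVB/N diabetic against 6.86 in FVB/N control kidney. It was 2.01-fold higher in the C57BL/6 diabetic library, and its FVB/N difference was -0.29.

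The small heat shock proteins hold unfolded protein without using ATP. Hspb1, which encodes Hsp25, read 9.47 in C57BL/6 diabetic against 9.51 in C57BL/6 control kidney, and 9.83 in FVB/N diabetic against 9.73 in FVB/N control kidney, so diabetic and control libraries were alike. Hspb8, a partner of Bag3 in selective autophagy, read 9.96 in C57BL/6 diabetic against 9.72 in C57BL/6 control kidney, and 9.20 in FVB/N diabetic against 9.93 in FVB/N control kidney. Its low value was in the FVB/N diabetic library, -0.73 log2 from its control. Hspb2, a small heat shock protein known from muscle, read 7.04 in C57BL/6 diabetic against 5.80 in C57BL/6 control kidney, and 6.52 in FVB/N diabetic against 6.23 in FVB/N control kidney. It was 2.37-fold higher in the C57BL/6 diabetic library, the largest C57BL/6 difference of any member, and 0.29 log2 higher in FVB/N. The summed smooth muscle markers read 12.14 in C57BL/6 diabetic against 12.18 in C57BL/6 control kidney, and 12.33 in FVB/N diabetic against 11.56 in FVB/N control kidney, and their part in the Hspb2 values was not tested.

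Hsp90aa1, the inducible cytosolic Hsp90, read 6.65 in C57BL/6 diabetic against 6.72 in C57BL/6 control kidney, and 7.03 in FVB/N diabetic against 6.63 in FVB/N control kidney. Dnajb1, the main stress-induced J protein of the cytosol, read 11.24 in C57BL/6 diabetic against 10.95 in C57BL/6 control kidney, and 10.95 in FVB/N diabetic against 10.89 in FVB/N control kidney. Neither gene reached the limit in either strain. Dnaja1, another J protein of Hsp70, lay near the minimum at its brightest probe, with 5.67 in C57BL/6 diabetic against 5.44 in C57BL/6 control kidney, and 5.30 in FVB/N diabetic against 5.92 in FVB/N control kidney. A further probe read 5.40 in C57BL/6 diabetic against 6.19 in C57BL/6 control kidney, and 5.26 in FVB/N diabetic against 5.38 in FVB/N control kidney. The probes disagreed, with -0.62 against -0.11 log2 in FVB/N and 0.23 against -0.79 in C57BL/6, so no direction is read for Dnaja1.

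In the mitochondrion, Hspa9 and Hspd1 encode the Hsp70 mortalin and Hsp60. Hspa9 read 9.85 in C57BL/6 diabetic against 10.09 in C57BL/6 control kidney, and 10.93 in FVB/N diabetic against 10.09 in FVB/N control kidney. The FVB/N diabetic library alone was high, 1.79-fold above its control, and the control libraries were alike. Hspd1 read 12.16 in C57BL/6 diabetic against 12.18 in C57BL/6 control kidney, and 11.98 in FVB/N diabetic against 12.30 in FVB/N control kidney. Its FVB/N difference of -0.32 stayed within the probe error, and a second, dimmer probe gave 0.43 in FVB/N and 0.30 in C57BL/6, so no direction is read for Hspd1. The Hspd1 window, shown as a member whose upstream sequence held the heat shock element, spans chr1:55087933-55088182 on the minus strand. The element with 3 repeats, GAA, TTC and GAA with 2 free bases between neighbours, occurred in 0.466% of all windows and among the members in Dnajb6 and Hspd1. The form with 2 repeats, GAANNTTC, which lies within the longer form, occurred in 6.69% of windows and in those of 7 members. The capitals mark 2 overlapping matches of the longer form, 1 on each strand.
Hspd1: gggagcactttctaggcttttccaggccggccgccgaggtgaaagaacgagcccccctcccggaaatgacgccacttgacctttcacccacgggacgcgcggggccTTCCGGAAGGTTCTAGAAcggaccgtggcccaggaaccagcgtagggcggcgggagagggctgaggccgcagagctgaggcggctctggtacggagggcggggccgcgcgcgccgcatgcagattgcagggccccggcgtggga

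Among the other mitochondrial members, Dnajc11, a J protein of the cristae-organising complexes, read 5.41 in C57BL/6 diabetic against 6.39 in C57BL/6 control kidney, and 6.46 in FVB/N diabetic against 6.07 in FVB/N control kidney. The C57BL/6 diabetic library was the low one, below the expression minimum and -0.97 log2 from its control. A second probe gave -0.37 in C57BL/6 and 0.09 in FVB/N, the same signs and smaller values. Dnajc15, a J protein of the inner membrane, read 9.46 in C57BL/6 diabetic against 8.80 in C57BL/6 control kidney, and 8.70 in FVB/N diabetic against 9.12 in FVB/N control kidney. It was 1.58-fold higher in the C57BL/6 diabetic library and -0.42 log2 from its control in FVB/N.

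**Figure D3:**
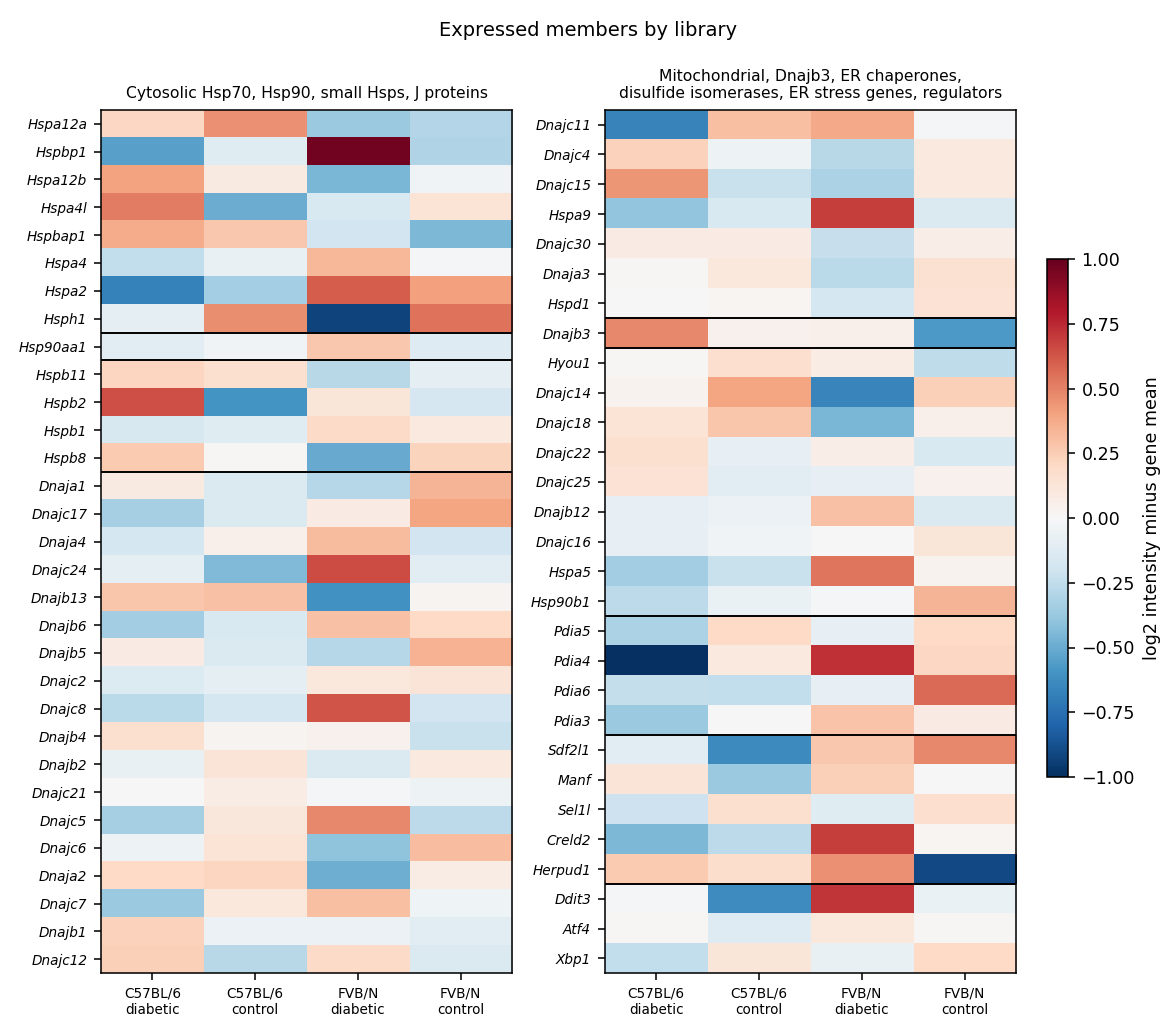
Log2 intensity of each expressed member in the 4 libraries, minus that gene's mean over them (colour, ends at -1 and 1), grouped by role and ordered within each role by mean intensity. In the FVB/N diabetic column Hspbp1, Pdia4, Ddit3, Creld2 and Hspa9 are among the high members and Hsph1 is low, and Pdia4 is low in the C57BL/6 diabetic column.

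Of the regulators of cytosolic Hsp70, Hspbp1, which encodes an exchange factor, had the widest strain contrast. It read 5.47 in C57BL/6 diabetic against 5.89 in C57BL/6 control kidney, and 6.97 in FVB/N diabetic against 5.71 in FVB/N control kidney. The FVB/N diabetic library was 2.40-fold above its control (1.26 log2), while the C57BL/6 difference was -0.43. The C57BL/6 diabetic value was below the expression minimum and both control values lay near it, so the size of this contrast is uncertain. Hspa2, an Hsp70 best known from male germ cells, read 9.58 in C57BL/6 diabetic against 9.92 in C57BL/6 control kidney, and 10.87 in FVB/N diabetic against 10.67 in FVB/N control kidney. Its diabetes differences were 0.20 in FVB/N and -0.33 in C57BL/6, while both FVB/N libraries were above both C57BL/6 libraries.

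J proteins deliver clients to Hsp70, and 18 of the 24 measured cytosolic and nuclear ones were expressed. In C57BL/6, 0 of the 18 passed the limit in either direction. In FVB/N, 3 were higher and 4 lower in the diabetic library, where 12.4% and 13.9% of all expressed genes were. Of the 4 lower ones Dnaja1, Dnajb13 and Dnajb5 no longer passed after loess centring, and Dnaja1 and Dnajc6 no longer passed under the mean of all probes. Dnaja1 reached the minimum only in the C57BL/6 diabetic and FVB/N control libraries, so its place here follows in part from the expression filter. Dnajc5, the cysteine string protein of secretory vesicles, read 9.0 in C57BL/6 diabetic against 9.45 in C57BL/6 control kidney, and 9.82 in FVB/N diabetic against 9.07 in FVB/N control kidney. Dnajc8, a J protein associated with the spliceosome, read 8.09 in C57BL/6 diabetic against 8.18 in C57BL/6 control kidney, and 8.98 in FVB/N diabetic against 8.16 in FVB/N control kidney. Dnajc24, which takes part in the modification of elongation factor 2, read 6.06 in C57BL/6 diabetic against 5.71 in C57BL/6 control kidney, and 6.80 in FVB/N diabetic against 6.04 in FVB/N control kidney. All 3 were highest in the FVB/N diabetic library, by 0.74, 0.83 and 0.77 log2 over its control.

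The lower ones included Dnajc6, the clathrin-uncoating factor auxilin, with 9.74 in C57BL/6 diabetic against 9.93 in C57BL/6 control kidney, and 9.39 in FVB/N diabetic against 10.10 in FVB/N control kidney. Dnajb13, a J protein of sperm flagella and cilia, read 7.20 in C57BL/6 diabetic against 7.22 in C57BL/6 control kidney, and 6.32 in FVB/N diabetic against 6.95 in FVB/N control kidney. Dnajb5 read 7.56 in C57BL/6 diabetic against 7.34 in C57BL/6 control kidney, and 7.20 in FVB/N diabetic against 7.84 in FVB/N control kidney. In each of these the FVB/N diabetic library was lowest, with differences of -0.71, -0.63 and -0.64 log2 from its control. Dnajc14, a J protein of the ER membrane, read 6.94 in C57BL/6 diabetic against 7.30 in C57BL/6 control kidney, and 6.25 in FVB/N diabetic against 7.15 in FVB/N control kidney, with lower diabetic values in both strains (-0.36 and -0.90). Dnajb3, a J protein known mainly from testis, read 6.67 in C57BL/6 diabetic against 6.24 in C57BL/6 control kidney, and 6.24 in FVB/N diabetic against 5.62 in FVB/N control kidney. Its diabetic values were higher in both strains, by 0.44 and 0.63.

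A second probe of Dnajc2, a ribosome-associated J protein, read 5.52 in C57BL/6 diabetic against 6.49 in C57BL/6 control kidney, and 7.03 in FVB/N diabetic against 6.42 in FVB/N control kidney. It therefore gave -0.98 in C57BL/6 and 0.60 log2 in FVB/N, where the brightest probe gave -0.04 and -0.02. At the brightest probe the narrowest ranges over the 4 libraries were those of Dnajc21 at 0.13, Dnajc16 at 0.20 and Atf4 at 0.23 log2. The second probe of Dnajc21 read 7.01 in C57BL/6 diabetic against 7.28 in C57BL/6 control kidney, and 8.01 in FVB/N diabetic against 7.45 in FVB/N control kidney, so for Dnajc21, as for Atf4, the narrow range holds for 1 probe only. The median range of the 60 members was 0.66, against 0.63 over all expressed genes.

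Genes outside the families that work with the cytosolic chaperones were read from 2 lists. Of 26 expressed co-chaperones and heat shock regulators, 2 passed the limit upward and 2 downward in C57BL/6 diabetic kidney, with a median of -0.07 log2, where 6.14% and 6.35% of all expressed genes did. In FVB/N, 4 were higher and 2 lower, with a median of -0.00, where 12.4% and 13.9% were. Bag6, a chaperone of newly made membrane proteins, read 8.79 in C57BL/6 diabetic against 9.09 in C57BL/6 control kidney, and 10.67 in FVB/N diabetic against 8.81 in FVB/N control kidney, high in the FVB/N diabetic library alone. Trap1, the mitochondrial Hsp90, differed by -0.92 in FVB/N and -0.60 in C57BL/6. Fkbp5, an Hsp90 co-chaperone of steroid receptors, differed by 0.80 and -0.64, and Sugt1 by -0.89 and 0.51. All 8 listed subunit genes of the cytosolic chaperonin TRiC were expressed. None passed the limit in C57BL/6, where the median was 0.08 and 6 of the 8 lay above 0. The shares over all genes there were 6.14% higher, 6.35% lower and 51.2% above 0. In FVB/N 3 were higher and 0 lower, with a median of 0.19 and 4 of the 8 above 0, beside shares over all genes of 12.4% higher, 13.9% lower and 42.4% above 0. The 3 were Cct2 at 1.27, Cct3 at 0.95 and Cct6a at 0.68, and Tcp1 followed at 0.43.

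Between strains, fewer chaperone genes differed among control kidneys than among diabetic kidneys, as over all genes. Among controls, 4 of 60 members were at least 1.5-fold higher in FVB/N, against 6.29% of all expressed genes, and 4 were lower, against 6.75%. Among diabetic libraries, 14 were higher in FVB/N, which is 23.3% of the members against 14.7% of all expressed genes, and 9 were lower, or 15.0% against 16.9%. At 2-fold, 1 member was higher and 1 lower in FVB/N among controls, against 1.57% and 2.60%, and 6 were higher and 0 lower among diabetic libraries, against 5.58% and 4.92%. The median FVB/N minus C57BL/6 difference of the members was 0.07 log2 among controls, with 0.01 over all genes, and 0.08 among diabetic libraries, with -0.08 over all genes. Beyond 2 single-probe standard deviations were 2 members among controls (Herpud1 and Sdf2l1), against 6.33% of all genes, and 3 among diabetic libraries (Hspa2, Hspbp1 and Pdia4), against 7.25%. The diabetes and strain comparisons share libraries, so they are not independent of each other.

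**Figure D4:**
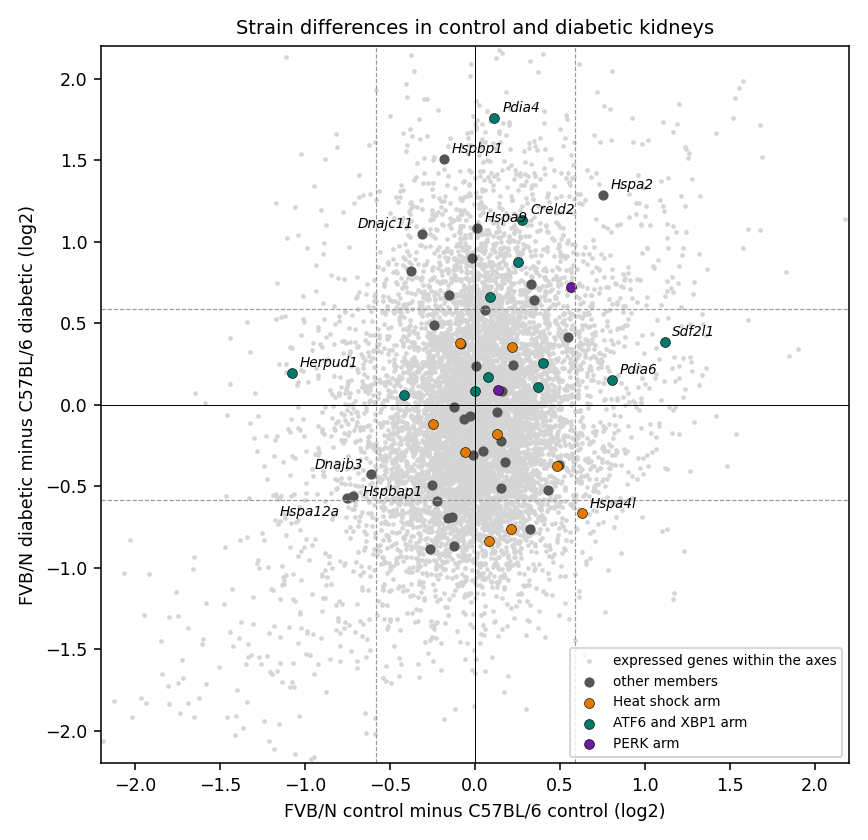
FVB/N minus C57BL/6 difference of expressed genes among control libraries (horizontal axis, log2) and among diabetic libraries (vertical axis, log2). Genes beyond the axis limits are not drawn. The 60 expressed members are coloured points by arm, and dashed lines mark the 1.5-fold limit. All 12 ATF6 and XBP1 arm members lie above 0 on the vertical axis, and Hspa2 is the only member past the upper limit on both axes.

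Hspa2 was the 1 member at least 1.5-fold higher in FVB/N in both comparisons, by 1.29 log2 among diabetic and 0.75 among control libraries, against 2.03% of all expressed genes past both. The members lower in FVB/N in both numbered 0, against 3.11%. Hspa4l was past the limit in opposite directions, -0.67 among diabetic and 0.63 among control libraries, against 0.989% of all genes. Among controls the other members higher in FVB/N were Sdf2l1 at 1.11 and Pdia6 at 0.81. The lower ones were Herpud1 at -1.08, Hspa12a at -0.75, Hspbap1 at -0.72 and Dnajb3 at -0.62. Hspa12a read 5.75 in C57BL/6 diabetic and 6.01 in C57BL/6 control kidney. It read 5.18 in FVB/N diabetic and 5.26 in FVB/N control kidney, below the expression minimum. Hspa12a counted as expressed only through its C57BL/6 values, so its place among the lower ones follows in part from the expression filter.

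Among diabetic libraries the ATF6 and XBP1 targets lay on one side, which did not hold for all ER members. All 12 expressed targets of the ATF6 and XBP1 arm were above 0 in FVB/N diabetic minus C57BL/6 diabetic, where 44.5% of all expressed genes were. Their differences ran from 0.06 in Hyou1 to 1.76 in Pdia4, with a median of 0.23 log2. Of the 12, 4 passed the 1.5-fold limit, namely Pdia4 at 1.76, Creld2 at 1.13, Hspa5 at 0.88 and Pdia3 at 0.66, against 14.7% of all expressed genes. By the same limit 0 were lower, against 16.9%. Other ER members lay below 0, among them the J proteins Dnajc14 at -0.69, Dnajc18 at -0.59, Dnajc25 at -0.22 and Dnajc22 at -0.09. Among control libraries 10 of the 12 were above 0, against 51.8% of all genes, with a median of 0.18. Of the 12 differences among diabetic libraries 8 lie within 1 single-probe standard deviation, and the FVB/N diabetic library, which stands apart over all genes, enters every one of them. The arm was also listed with earlier results of these data known, so the shared side is given as a description.

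The heat shock arm had 2 of its 9 expressed targets above 0 in the same comparison, where 44.5% of all expressed genes were. By the 1.5-fold limit 0 of the 9 were higher in FVB/N and 3 were lower, with a median of -0.29 log2, where 14.7% and 16.9% of all expressed genes were. They were Hsph1 at -0.84, Hspb8 at -0.76 and Hspa4l at -0.67. The other 6 lay within the 1.5-fold limit, which is close to the single-probe standard deviation of 0.58 in this comparison. Under the mean of all probes 3 of the 9 were above 0. The dimmer Hspd1 probe gave 0.57 where the brighter one gave -0.18. The FVB/N diabetic library enters every one of these differences as well. Among control libraries 1 was higher and 0 lower, against 6.29% and 6.75% of all expressed genes, with a median of 0.13. The difference between the 2 arms was not tested, and both arms were listed with earlier results of these data known.

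The diabetes differences of the strains were also subtracted, FVB/N minus C57BL/6. They lay at least 1.5-fold apart in the positive direction for 11 members, against 15.5% of all expressed genes, and in the negative direction for 12, against 18.6%. At 2-fold the counts were 6, against 6.09%, and 2, against 5.67%. Beyond 2 single-probe standard deviations of 0.60 log2 were 5 members, against 6.47% of all genes. They were Hspbp1 at 1.69, Pdia4 at 1.65, Dnajc11 at 1.36, Herpud1 at 1.27 and Hspa4l at -1.29.

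**Figure D5:**
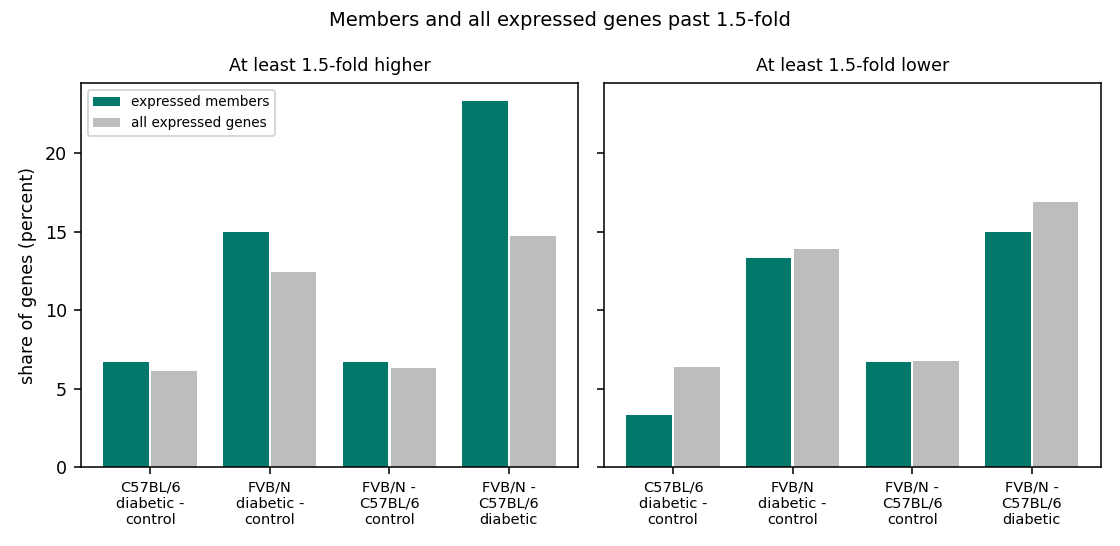
Percent of the 60 expressed members and of all 9201 expressed genes at least 1.5-fold higher or lower in each comparison. Among control libraries 6.67% of members were higher in FVB/N against 6.29% of all genes, and among diabetic libraries 23.3% against 14.7%.

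By library, the FVB/N diabetic kidney held the highest value for 22 of the 60 members, against 28.1% of all expressed genes, and the lowest for 18, against 39.7%. It was at least 1.5-fold above each other library for 6 members (Creld2, Ddit3, Dnajc24, Dnajc8, Hspa9 and Hspbp1), against 6.94% of all genes, and below each for 3 (Dnajb13, Dnajc14 and Hsph1), against 5.35%. The C57BL/6 diabetic kidney held the lowest value for 21 members, against 22.9%, and the highest for 14, against 26.7%. Pdia4 and Dnajc11 were at least 1.5-fold below each other library there, against 1.45% of all genes. In the FVB/N control kidney 1 member, Pdia6, was at least 1.5-fold above each other library, against 1.02%, and Dnajb3 and Herpud1 were below each, against 0.848%.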

How the data were processed

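RNA was extracted from kidneys with Trizol, cleaned on columns, converted to biotinylated cRNA and stained with streptavidin-Cy3, per the labels' protocols. The deposited values were taken for log2 intensities from their range, 4.45 to 15.84. The authors' normalization, background correction and filtering are not stated in the sources read here, and no detection calls were used. Values were taken as deposited, so the small number of arrays limits precision. Annotation symbols came from the platform annotation, and all 99 member symbols matched the reference gene table. Each gene was represented by its brightest probe, and genes with a mean of at least 5.49, the median of all probe means, counted as expressed. Differences were computed with Python 3.11.15 and pandas 2.3.3, and alternatives with limma 3.58.1 in R 4.3.3, and the differencing was tested on simulated data. No test was run, since each group has 1 library.

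The members, gene lists, arms and motifs were chosen with earlier results of these data known. Values in every library are given for a core set, for expressed members past 1.5-fold in either diabetes comparison and for those past it the same way in both strain comparisons. Of each other list up to 4 genes with the largest differences are named, and Asns was chosen after its values were seen. The alternatives were quantile normalization, median centring, loess centring (span 0.3), no minimum on expression, a stricter minimum at percentile 75, the mean of all probes and a 2-fold limit.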

Additional observations from a re-analysis of the deposited data

Results flagged for a closer look

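For 7 of the 60 expressed members, against 10.1% of all expressed genes, the diabetic library was above its control in one strain and below it in the other, with the strains' differences at least 2-fold apart. Each value below is the FVB/N diabetes difference minus the C57BL/6 diabetes difference in log2. None of these contrasts was tested, since each group has 1 library. It was 1.69 for Hspbp1, 1.65 for Pdia4, 1.36 for Dnajc11, 1.20 for Dnajc5 and 1.07 for Hspa9, all with the higher diabetic value in FVB/N. It was -1.29 for Hspa4l and -1.08 for Dnajc15, which had the higher diabetic value in C57BL/6. Hspbp1 and Dnajc11 read below the expression minimum in the C57BL/6 diabetic library.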

How the results depend on the processing

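The counts of members at least 1.5-fold higher or lower kept within 1.5 times of the reported ones under quantile normalization, median centring, the mean of all probes and no expression filter, in each comparison run. The deposited libraries already had nearly the same lowest, median and highest values. Quantile normalization and median centring could therefore change little, and their counts are a weak check. Loess centring left 4 in place of 8 members lower in FVB/N diabetes, losing Dnaja1, Dnajb13, Dnajb5 and Pdia6. The filter at percentile 75, 7.26 log2, kept 37 members. It left 1 higher and 1 lower in C57BL/6 diabetes, 5 and 5 in FVB/N diabetes, 2 and 1 in FVB/N against C57BL/6 controls, 4 lower among diabetic libraries and 6 lower in the difference of the differences. The 2-fold limit left 2 higher and 1 lower in C57BL/6 diabetes, 2 and 1 in FVB/N diabetes, 1 and 1 among controls, 6 and 0 among diabetic libraries, and 6 and 2 in the difference of the differences. Fewer genes tested or a wider limit gives smaller counts by construction. Under the mean of all probes, Atf4 stood at 0.67 log2 in FVB/N diabetes instead of 0.09. All 12 ATF6 and XBP1 targets stayed above 0 among diabetic libraries under loess centring, and 15 of 16 did without a filter. Quantile normalization and median centring, which could change little, left all 12 above 0 as well. The mean of all probes could not change them, since each of the 12 has 1 probe. No paired analysis was possible because each group has 1 library, and for the same reason no replicate could be left out. Probes near the expression minimum, among them Ddit3, Hyou1 and Dnaja1, have the least signal over background, and the depth of signal behind them is unknown.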
